A study of Mus musculus with 16 samples.

Results

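Complement and coagulation proteins are plasma proteins made largely by hepatocytes, and 40 of their gene symbols were followed across mouse liver arrays. Members were matched by symbol to the platform annotation, and their list was chosen with earlier results of these data known. Of the 40 symbols, 36 had a probe set that named them alone, and these 36 were read by 47 of the 22626 probe sets and counted among 12393 genes. The other 4 were skipped: no probe set here named C3, Cfd or Cpb2 alone, and the probe set for C4b is annotated to C4a as well. In 29 members 1 probe set read the gene, and in 7 members (Masp1, Masp2, F5, F10, Proz, Kng1 and Vtn) several did.

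Liver RNA of male FvB/n mice was hybridised to 16 Affymetrix arrays in 2 separate experiments of 8. In the first, TTR::Fv2E-PERK mice of a high-expressing line, in which the transthyretin promoter drives a fusion of the PERK kinase to a drug-binding domain, were untreated (4 arrays) or given AP20187 (4 arrays), the compound that pairs the fusion protein and so switches the kinase on. All 8 carried the transgene, and the design text calls the control injection mock where the labels say untreated. In the second, wildtype mice and Alb::GC mice, in which the albumin promoter drives GC, a GADD34 fragment that counters eIF2alpha phosphorylation, were fed either a diet low in fat (LFD) or one high in fat (HFD), with 2 arrays for each of the 4 groups. The sources used here give no age, dose, hours after injection or weeks on diet, and the Atf4 knockout animals of the design text are not analysed here. The transgene promoters limit these models to the cells that use them, chiefly hepatocytes.

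PERK is a kinase of the endoplasmic reticulum that phosphorylates eIF2alpha when unfolded secretory protein accumulates, which lowers translation and starts the integrated stress response. Complement proteins and clotting factors are secretory cargo of that same compartment. The complement pathways converge on C3 and C5 and end in the membrane attack complex, and the clotting cascade runs from the contact factors and factor VII through prothrombin to fibrin, held in check by inhibitors such as antithrombin.

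The deposited values are ratios around 1, with 2 decimals, and their denominator is not given in the sources used here. They hold no absolute level, so levels of different genes are not compared, the liver label could not be set against marker levels, and each experiment was read on its own scale. Array medians over all probe sets lay between 0.94 and 1.02. A change below is the difference of mean log2(ratio + 0.05) with its standard error, and a gene is called lower or higher where the adjusted p of limma (Benjamini-Hochberg over 22626 probe sets) is under 0.05. The labels do not say that arrays came from separate animals, so a p-value reflects only how far these samples vary, and that variation may be technical.

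AP20187 was set against the controls labelled untreated to ask how the members change when the kinase is switched on. No animals without the transgene were given the compound. Effects of the compound itself, or of an injection if the controls had none, therefore cannot be told apart from those of the kinase. With AP20187, 33 of the 36 members were called lower and 0 higher, against 20.4% lower and 13.8% higher among all genes. The median change of the members was -0.60 and that of all genes -0.14. The members called lower ran from pattern receptors to the membrane attack complex, and from the contact factors to fibrinogen and the inhibitors of clotting. C2, the protease partner of C4, stood apart with a change of 0.01 ± 0.11 (limma adjusted p = 0.96), as did C4bp, a brake on C4 (-0.31 ± 0.13, adjusted p = 0.109), and F5, the cofactor of factor X (-0.17 ± 0.12, adjusted p = 0.33). In 32 of 36 members every treated array lay below every untreated array, which was so for 20.4% of all genes. These are bulk samples, so fewer hepatocytes and less RNA per hepatocyte cannot be told apart.

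**Figure D1:**
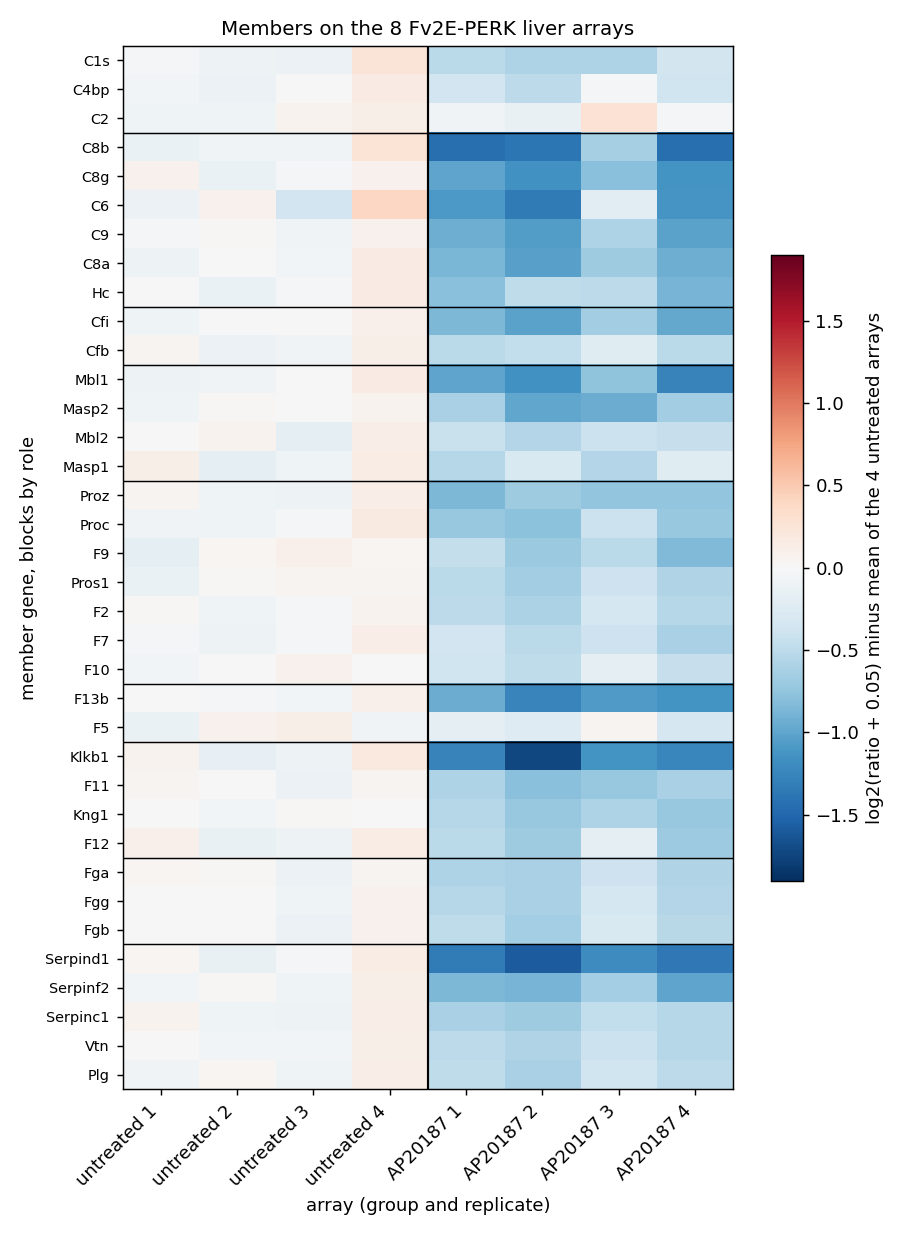
Each cell is 1 member (row) on 1 array (column), coloured by log2(ratio + 0.05) minus the mean of the 4 untreated arrays, with rows in blocks by role. The 4 AP20187 columns are blue in nearly every row, C2 and F5 are the palest, and AP20187 replicate 3 is paler than the other treated columns in most rows.

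The member with the largest fall was Serpind1, heparin cofactor II, an inhibitor of thrombin. Its ratio was 2.68, 2.37, 2.53 and 2.87 in the untreated livers and 1.01, 0.84, 1.11 and 0.99 in the treated. The groups lay far apart, with a change of -1.36 ± 0.11 (limma adjusted p = 0.000128), 2.57-fold lower. Klkb1, plasma prekallikrein of the contact system, read 2.57, 2.21, 2.3 and 2.81 untreated and 0.99, 0.71, 1.09 and 1.01 treated. It fell by nearly as much, with a change of -1.35 ± 0.15 (adjusted p = 0.00038). F13b is the carrier subunit of the transglutaminase that crosslinks fibrin. It read 2.20, 2.16, 2.13 and 2.38 untreated and 1.13, 0.90, 1.02 and 0.98 treated, a change of -1.10 ± 0.09 (adjusted p = 0.000133). No treated array of these 3 genes came within the untreated range.

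The 250 bases upstream of the RefSeq gene starts of Serpind1 and Klkb1 (GRCm38.p6) are shown because these 2 members fell furthest. They lie at chr16:17331121-17331370 on the plus strand for Serpind1 and chr8:45294836-45295085 on the minus strand for Klkb1, written 5′ to 3′ along the gene. Capitals mark matches on either strand to short motifs of hepatocyte or stress regulators.
Serpind1: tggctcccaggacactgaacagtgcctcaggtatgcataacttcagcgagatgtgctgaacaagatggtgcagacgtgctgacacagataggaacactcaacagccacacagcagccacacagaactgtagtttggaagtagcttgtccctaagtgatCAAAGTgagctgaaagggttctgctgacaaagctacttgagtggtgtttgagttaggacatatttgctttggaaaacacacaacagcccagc
Klkb1: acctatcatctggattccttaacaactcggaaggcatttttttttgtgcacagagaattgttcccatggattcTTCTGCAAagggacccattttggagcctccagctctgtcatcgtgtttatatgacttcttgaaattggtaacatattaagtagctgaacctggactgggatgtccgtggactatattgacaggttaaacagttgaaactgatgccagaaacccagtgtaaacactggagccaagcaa
In Serpind1 the capitals are a match to the HNF4 motif CAAAGT, and in Klkb1 to the C/EBP site TTGCNNAA. Of 36 members, 29 had a window in the RefSeq table (the window with the lowest coordinates for the 2 genes with several). Each window ends at 1 annotated start of the gene. In 13 of the 29, F13b among them, RefSeq has another start further upstream, so those windows reach into the annotated gene. The windows of Hc, C8g, Masp2, F7 and Proz lie wholly inside it, ending 7094, 1271, 7922, 528 and 324 bases in. The matches counted below for Hc, Masp2 and Proz are therefore not upstream of the outermost start. The HNF1 motif GTTAAT was found in 9 of 29 member windows (31%) and in 6.43% of 32851 windows of all genes. The 9 were C4bp, C8a, C8b, Hc, F13b, Fga, Fgb, Proz and Vtn. The HNF4 motif was found in 6 (20.7%) against 12.6%, and the C/EBP site in 6 (20.7%) against 9.56%. The STAT site TTCNNNGAA was found in 6 (20.7%) against 7.02%. The composite ATF4 site TGATGCAA was in 0 of 29 windows against 0.791% of all. Matches of different motifs overlapped in 0 member windows. A match is a run of letters and not a bound site, and no match says only that these letters are not in this window.

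All 6 membrane attack members were called lower, with a median change of -0.92. C8b, the beta chain of C8, read 1.87, 1.96, 1.95 and 2.45 untreated and 0.73, 0.76, 1.30 and 0.73 treated, a change of -1.21 ± 0.19 (adjusted p = 0.00201). C8g, its gamma chain, read 2.28, 1.96, 2.11 and 2.28 against 1.05, 0.94, 1.22 and 0.95, a change of -1.02 ± 0.11 (adjusted p = 0.000327). Both chains were lower on each treated array than on any untreated one. C9, which forms the ring of the pore, read 1.67, 1.75, 1.63 and 1.83 against 0.88, 0.80, 1.13 and 0.82, a change of -0.90 ± 0.12 (adjusted p = 0.000765). C6, which joins C5b at the start of assembly, read 1.74, 1.99, 1.45 and 2.50 against 0.86, 0.71, 1.62 and 0.84. Its groups overlapped, because treated replicate 3 exceeded untreated replicate 3, and the change of -0.94 ± 0.26 had an adjusted p of 0.0258. C8a (-0.87) and Hc (-0.67), the gene of C5, were called lower as well. FVB/N mice are known to lack circulating C5 through a null allele of Hc, so this probe set reads transcript only.

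The lectin pathway, in which mannose-binding lectins and their proteases recognise microbial sugars, had 4 of 4 members called lower, with a median of -0.63. Mbl1, mannose-binding lectin A, read 2.01, 2.06, 2.18 and 2.41 untreated and 1.05, 0.95, 1.25 and 0.87 treated, a change of -1.05 ± 0.12 (adjusted p = 0.000546). Mbl2, mannose-binding lectin C, read 1.21, 1.27, 1.07 and 1.33 against 0.89, 0.81, 0.90 and 0.88, a smaller change of -0.46 ± 0.09 (adjusted p = 0.00615). In both lectins the groups did not overlap. Masp2, the protease that cleaves C4 and C2, had a change of -0.80 and its other probe set -0.83. Masp1, the partner protease, is uncertain: the probe set that represents it was called lower (-0.41 ± 0.12, adjusted p = 0.0346), another was called higher (1.06 ± 0.27, adjusted p = 0.017), and the remaining 3 were not called. In the other arms of complement, Cfi, the protease that degrades C3b, had a change of -0.87, Cfb, the protease of the alternative pathway, -0.43, and C1s, a protease of the classical pathway, -0.51. The C1s probe set is of a type that can match related transcripts, so its near-identical copy may contribute.

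The 7 vitamin K dependent members were all called lower by the probe sets that represent them. The median was -0.53 and the range from -0.76 for Proz, protein Z, to -0.37 for F10, factor X. That order depends on the probe set. Of the others for F10, one was called lower at -0.94 and one was not called at -0.42 (limma adjusted p = 0.0565). The other for Proz was called lower at -1.14. F7, the factor that pairs with tissue factor to start clotting, read 1.37, 1.30, 1.37 and 1.52 untreated and 1.07, 0.96, 1.04 and 0.89 treated. The groups did not overlap, and the change was -0.47 ± 0.09 (adjusted p = 0.00429). Proc, the anticoagulant protein C (-0.66), F9 (-0.63), Pros1, the cofactor of protein C (-0.53), and prothrombin F2 (-0.49) lay between. The 3 fibrinogen chains were close to each other, at -0.55 for Fga, -0.51 for Fgg and -0.49 for Fgb. Fgb read 1.26, 1.26, 1.16 and 1.33 untreated and 0.88, 0.78, 1.02 and 0.85 treated, a change with a standard error of 0.10 and an adjusted p of 0.00668.

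Anticoagulant and procoagulant members were lower together. Serpinc1, antithrombin, read 1.51, 1.36, 1.34 and 1.57 untreated and 0.92, 0.88, 1.03 and 0.97 treated, a change of -0.58 ± 0.09 (adjusted p = 0.00153). Serpinf2, the inhibitor of plasmin (-0.85), plasminogen itself, Plg (-0.49), and the adhesive protein vitronectin, Vtn (-0.50), were called lower too, which made 5 of 5 in the group of inhibitors and fibrinolysis members. Of the 4 contact members, all called lower, F11 (-0.68), Kng1, the kininogen (-0.64), and F12 (-0.51) changed less than Klkb1.

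**Figure D2:**
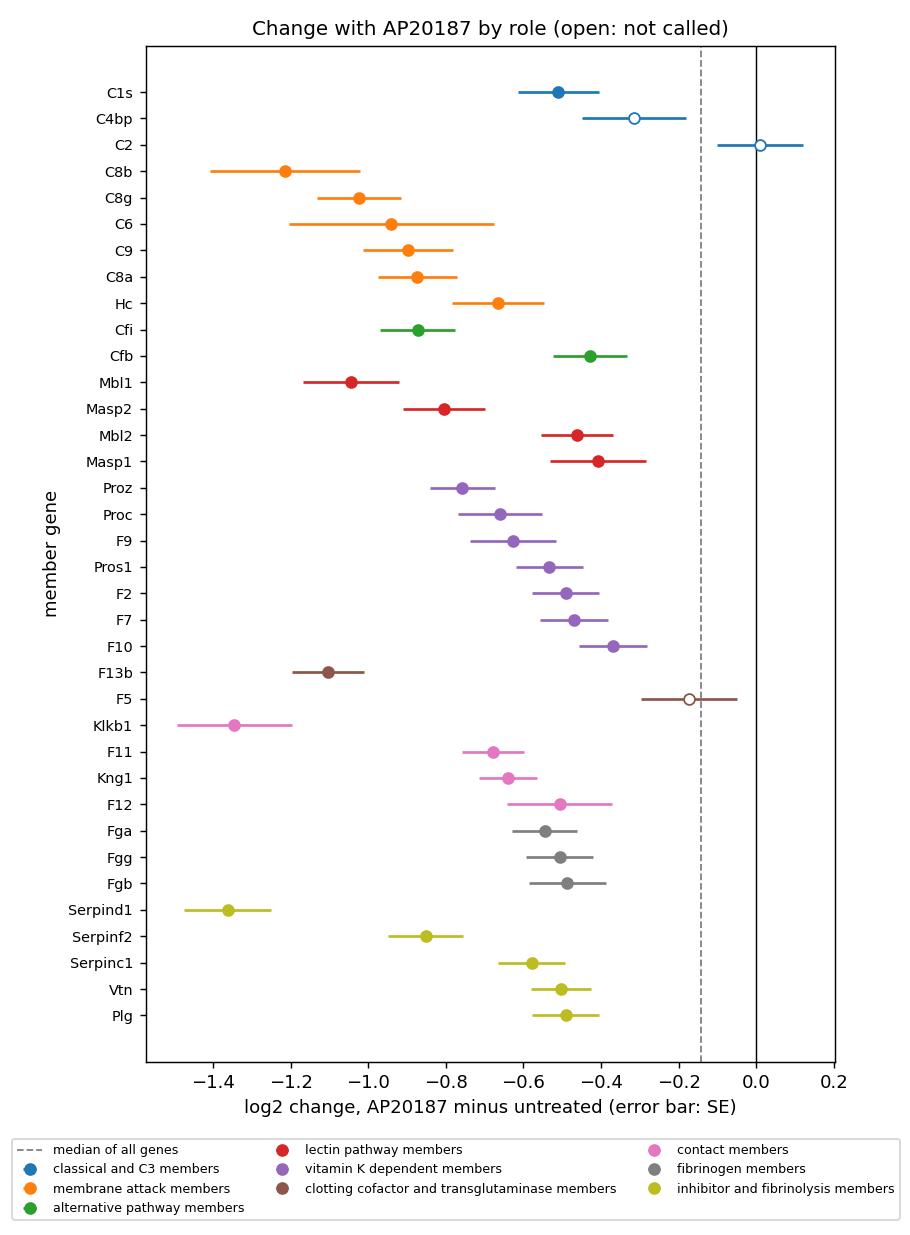
Points are the log2 change with AP20187 of each member, coloured by role, bars are standard errors, and open points were not called. Serpind1, Klkb1, C8b, F13b, Mbl1 and C8g lie left of -1, and 35 of 36 points lie below 0, the exception being C2 at 0.01.

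The untreated and treated groups each held an array that stood at the top for most members. Untreated replicate 4 was the highest of its group in 29 of 36 members and treated replicate 3 in 26 of 36. Without these 2 arrays, a choice made after seeing the data, 32 members were called lower and 0 higher, with a median of -0.61. The share of all genes called without them was not counted. Under quantile normalization 27 members were called lower. It took the median of all genes from -0.14 to -0.07 and the number of all genes called lower from 2531 to 1909. The log2 difference between control probe sets at the tail and at the head of beta-actin transcripts, a sign of RNA quality, ran from -0.18 to -0.02 on untreated arrays and from -0.04 to 0.15 on treated ones. For Gapdh it was 0.19 on treated replicate 3, -0.14 to -0.10 on the other treated arrays and -0.06 to -0.01 on the untreated. Their part in the members' change was not tested.

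Genes of the same cascades outside the list were also mostly lower or not called. Of 18 other complement genes 8 were called lower and 0 higher (median -0.34), led by Cd59a, a membrane inhibitor of the attack complex (-0.85 ± 0.08), C1ra (-0.75 ± 0.15), Clu, clusterin (-0.63 ± 0.10), and Serping1, the C1 inhibitor (-0.61 ± 0.13). Of 28 other coagulation and fibrinolysis genes 13 were called lower and 1 higher (median -0.38). The largest falls were Procr, the receptor of protein C (-1.92 ± 0.60), Ggcx, the gamma-carboxylase that the vitamin K dependent factors need (-1.66 ± 0.13), Plat, tissue plasminogen activator (-1.63 ± 0.49), and Habp2, a plasma serine protease (-1.09 ± 0.15). Ggcx read 3.45, 3.09, 2.65 and 3.38 untreated and 1.04, 0.81, 0.98 and 1.02 treated. Vkorc1, which recycles vitamin K, also fell (-0.81 ± 0.13, adjusted p = 0.0019). The gene called higher was F3, tissue factor, the cell surface trigger of clotting: 0.60, 0.56, 0.54 and 0.44 untreated against 2.24, 1.65, 1.05 and 1.48, a change of 1.46 ± 0.22 (adjusted p = 0.00157).

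Other secreted products of hepatocytes were mostly called lower as well. Of 23 such plasma protein genes 19 were called lower and 0 higher, with a median of -0.51, among them Afm (-1.13 ± 0.10), Igfals (-1.01 ± 0.12), Agt (-0.94 ± 0.16) and Itih1 (-0.83 ± 0.10). Of 21 acute phase genes 5 were called lower and 8 higher, including Saa3 (3.81 ± 0.26), Mt1 (2.63 ± 0.32), Mt2 (2.46 ± 0.28) and Socs3 (2.27 ± 0.11). Of 13 hepatocyte transcription factors 1 was called lower and 8 higher, including Prox1 (1.88 ± 0.18), Nr1h4 (1.80 ± 0.08), Cebpd (1.54 ± 0.20) and Cebpb (1.29 ± 0.16). Among markers of cells, 6 of 8 hepatocyte, 4 of 8 macrophage, 4 of 8 stellate and fibroblast, 2 of 8 endothelial, 1 of 7 lymphocyte and 1 of 4 pancreas genes were called lower, and 1 macrophage gene, Cd163, was called higher. The hepatocyte markers Alb, Ttr and Apoa1 were already counted among the secreted plasma proteins above. None of 6 neutrophil, 4 cholangiocyte and 3 adipocyte genes was called in the limma fit, though 3, 1 and 0 of them had an unadjusted p under 0.05. The summed ratios of the stellate and fibroblast markers ran from 12.6 to 16.9 on untreated arrays and 6.68 to 7.92 on treated ones, and those of the macrophage markers from 8.85 to 9.61 and 6.23 to 8.22. No marker was at the smallest deposited value, and their part in the members' change was not tested.

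HFD was set against LFD within wildtype mice to ask what the diet does to the same genes. There, 7 of 36 members were called lower and 2 higher, against 7.16% lower and 6.27% higher among all genes, and 27 were not called. The median change was -0.27 for the members and -0.17 for all genes. The change fell unevenly: 3 members dropped by over 1.8 on the log2 scale, Hc and C1s rose, and the fibrinogen chains were not called (-0.28 to 0.03).

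C8b read 1.48 and 1.03 in wildtype livers on LFD and 0.19 and 0.22 on HFD, a change of -2.34 ± 0.27 (limma adjusted p = 0.00779), 5.05-fold lower. C6 read 1.34 and 0.91 on LFD and 0.20 and 0.18 on HFD, a change of -2.27 ± 0.27 (adjusted p = 0.00875), 4.82-fold lower. F11, the contact factor that activates factor IX, read 1.47 and 1 against 0.31 and 0.31, a change of -1.81 ± 0.25 (adjusted p = 0.0117), 3.51-fold lower. In these 3 genes, named for their large falls, both HFD wildtype arrays lay far below the other 6 arrays of the experiment. How many of all genes were separated in that way was not counted.

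The bases upstream of their outermost RefSeq starts (GRCm38.p6) are shown because the 3 fell together. The table's window ends at a start lying 143 bases inside the annotated gene for C6 and 24 for F11, and those bases are left out. The stretches lie at chr15:4726960-4727066 on the plus strand for C6, chr4:104766067-104766316 on the plus strand for C8b and chr8:45262056-45262281 on the minus strand for F11, and capitals mark the same motifs.
C6: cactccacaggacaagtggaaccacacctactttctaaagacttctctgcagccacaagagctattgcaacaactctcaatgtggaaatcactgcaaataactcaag
C8b: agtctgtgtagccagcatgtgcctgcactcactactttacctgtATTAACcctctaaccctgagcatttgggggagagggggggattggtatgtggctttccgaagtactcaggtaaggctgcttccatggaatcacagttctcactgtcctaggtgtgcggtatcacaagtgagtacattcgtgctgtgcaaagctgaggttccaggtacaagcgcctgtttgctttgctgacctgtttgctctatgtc
F11: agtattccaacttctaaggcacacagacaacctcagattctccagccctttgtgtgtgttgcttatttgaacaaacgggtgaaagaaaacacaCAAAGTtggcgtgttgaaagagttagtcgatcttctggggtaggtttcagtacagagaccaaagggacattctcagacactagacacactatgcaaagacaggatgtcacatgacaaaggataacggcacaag
The 107 bases shown for C6 held 0 of the 5 motifs, those for C8b a reverse-strand match to the HNF1 motif, and those for F11 a match to the HNF4 motif. The full windows of C6 and F11 added 1 match, to the C/EBP site, in F11. No motif was common to the 3 windows.

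The other members called lower changed less. Of 17 alternatives in processing or arrays used, F10, Mbl1 and C8g kept the call in 7 and Proc in 8. C8b, C6 and F11 kept theirs in 14. F10 read 1.48 and 1 on LFD and 0.62 and 0.61 on HFD, a change of -0.93 ± 0.24 (adjusted p = 0.049), and its other 2 probe sets were called lower too (-0.95 and -0.80). Mbl1 read 1.34 and 1.08 against 0.65 and 0.65, a change of -0.84 ± 0.20 (adjusted p = 0.0412). Both genes were lower on each HFD wildtype array than on either LFD one, and the share of all genes so separated was not counted. Proc read 1.31 and 1.18 against 0.67 and 0.76 (-0.76 ± 0.16, adjusted p = 0.0316), and C8g 1.29 and 1.26 against 0.81 and 0.84 (-0.60 ± 0.14, adjusted p = 0.0388). By role, 3 of 6 membrane attack, 2 of 7 vitamin K dependent, 1 of 4 lectin and 1 of 4 contact members were called lower.

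In the opposite direction, Hc read 0.89 and 0.81 on LFD and 1.98 and 2.22 on HFD, a change of 1.26 ± 0.14 (adjusted p = 0.0072), 2.39-fold higher. C1s read 0.84 and 0.70 against 1.44 and 1.45, a change of 0.87 ± 0.13 (adjusted p = 0.0149). The Hc transcript therefore differed in direction from those of C6 and C8b, which are also membrane attack members. As FVB/N mice lack circulating C5, this does not describe the make-up of a complex. For F5, the probe set that represents it changed by -0.01 ± 0.19, while its other probe set read 0.91 and 0.80 against 1.79 and 1.71 and was called higher (0.99 ± 0.13, adjusted p = 0.0107). That probe set was called higher in Alb::GC too (0.66 ± 0.13, adjusted p = 0.0407) and averaged over genotypes (0.83 ± 0.09, adjusted p = 0.00387). For Masp1, the representing probe set was not called (-0.61 ± 0.30), while another was called lower in wildtype (-0.72 ± 0.18, adjusted p = 0.0444) and averaged over genotypes (-0.72 ± 0.12, adjusted p = 0.0116), with -0.73 ± 0.18 (adjusted p = 0.0615) in Alb::GC. Of those always reported, F7 read 1.35 and 0.90 against 0.74 and 0.65 (-0.63 ± 0.22, adjusted p = 0.105), Serpinc1 changed by -0.33 ± 0.13, Fgb by -0.09 ± 0.17 and Mbl2 by -0.03 ± 0.13, and none was called.

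The calls in wildtype depend on few arrays. The median ratio of the members was 1.205 on LFD wildtype replicate 1 and 0.99 on replicate 2, where that of all genes was 1.03 and 1. The part of this difference in the calls was not tested. In the refits below the share of all genes called was not counted, so lost calls cannot be read as particular to the members. Without HFD wildtype replicate 1, and likewise without replicate 2, 0 members were called lower and 0 higher. With the LFD and HFD wildtype arrays fitted alone, 0 were called lower and 1 higher, with adjusted p values of 0.0594 for C8b, 0.065 for C6 and 0.0686 for F11.

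In Alb::GC mice the same diet contrast had 0 members called lower and 2 higher, against 2.37% and 3.81% of all genes; by limma 8 members had an unadjusted p under 0.05. The 2 were those that were higher in wildtype: Hc, at 1 and 1.12 on LFD and 2.17 and 2.15 on HFD (0.996 ± 0.14, adjusted p = 0.0184), and C1s, at 1.03 and 0.98 against 1.64 and 1.67 (0.69 ± 0.13, adjusted p = 0.0368). C6 read 1.09 and 1.22 on LFD and 1.14 and 1.29 on HFD, a change of 0.07 with a 95% interval from -0.59 to 0.73. C8b read 1.27 and 1.39 against 0.85 and 0.97 (-0.53, interval -1.17 to 0.12), and F11 read 1.25 and 1.08 against 1 and 1 (-0.21, interval -0.81 to 0.39). None of these 3 was called. For all of them the interval leaves out the wildtype estimate, but that estimate has its own error and was picked for its size. The interaction below is the test of a difference between genotypes, and it called none of the 3. Mbl1 read 1.06 and 1.19 against 0.66 and 0.61, much as in wildtype, with a change of -0.78 ± 0.20 and an adjusted p of 0.0689. Klkb1 read 0.92 and 0.98 against 1.68 and 1.67 (0.79 ± 0.24, adjusted p = 0.102), and in wildtype 1.48 and 0.85 against 1.06 and 1.08 (-0.07 ± 0.24). Without either LFD wildtype array the count of members called higher became 3, and without any 1 of the other 6 diet arrays it was 0.

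**Figure D3:**
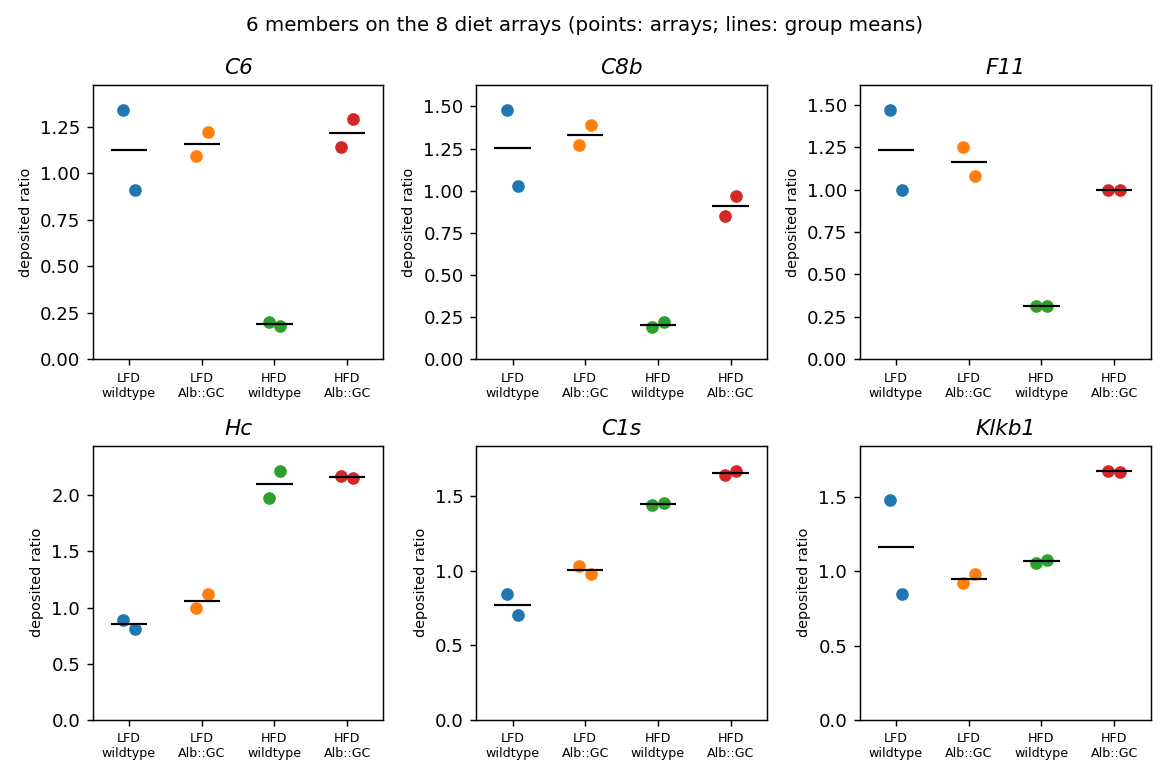
Each panel is 1 member, each point the deposited ratio of 1 of the 8 diet arrays (vertical axis, from 0), and each line a group mean. C6, C8b and F11 are lowest in HFD wildtype, between 0.18 and 0.31, Hc and C1s are higher on HFD in both genotypes, and Klkb1 is highest in HFD Alb::GC, at 1.68 and 1.67.

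The difference between genotypes was tested itself. As the interaction of diet and genotype (the diet change in Alb::GC minus that in wildtype), 0 members were called lower and 0 higher by limma, as were 0% of all genes in each direction, and 4 members had an unadjusted p under 0.05. The estimates for C6 (2.34 ± 0.39, unadjusted p = 0.000761, adjusted p = 0.142), C8b (1.81 ± 0.38, adjusted p = 0.205) and F11 (1.6 ± 0.35, adjusted p = 0.207) were large and did not pass. For Hc the interaction was -0.26 with a 95% interval from -0.72 to 0.20, and for C1s -0.18 with one from -0.63 to 0.27.

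Alb::GC and wildtype mice were also compared on each diet. On HFD, 0 members were called in either direction by limma, against 0.105% lower and 0.0323% higher among all genes, and 4 had an unadjusted p under 0.05. C6 had a change of 2.40 ± 0.27 (adjusted p = 0.0559), C8b of 1.91 ± 0.27 (adjusted p = 0.0719) and F11 of 1.54 ± 0.25 (adjusted p = 0.0867). On LFD, 0 members were called in either direction by limma, as were 0% of all genes, and 4 had an unadjusted p under 0.05. The nearest were C1s (0.37 ± 0.13) and Kng1 (-0.42 ± 0.15), both with an adjusted p of 0.435. The other probe set of Kng1 changed by -0.16 ± 0.16 (limma adjusted p = 0.754). These comparisons share arrays with the diet contrasts.

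**Figure D4:**
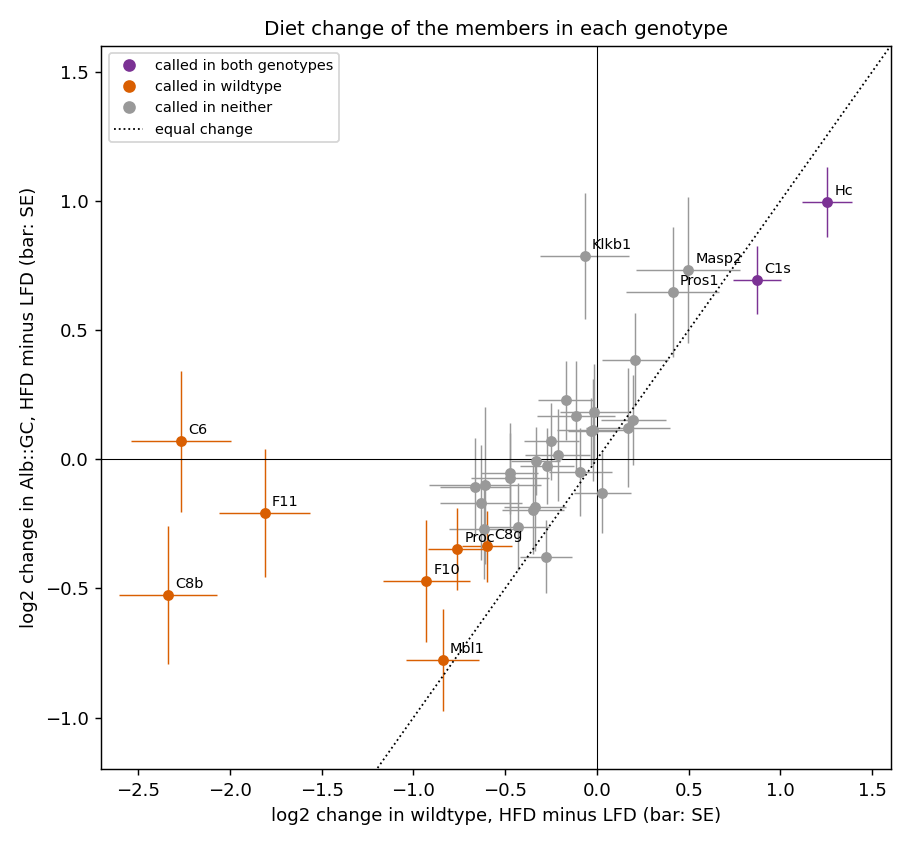
Each point is 1 member, with its diet change (log2, HFD minus LFD) in wildtype on the horizontal axis and in Alb::GC on the vertical axis, bars are standard errors, and the dotted line marks equal change. Hc and C1s lie near the line at upper right, Mbl1 near it at lower left, and C6, C8b and F11 far to the left of it, with wildtype changes from -2.34 to -1.81 against -0.53 to 0.07 in Alb::GC.

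Averaged over genotypes, 7 members were called lower on HFD and 2 higher, against 15.3% and 11.1% of all genes. They were C8b (-1.43 ± 0.19), C6 (-1.10 ± 0.19), F11 (-1.01 ± 0.17), Mbl1 (-0.81 ± 0.14), F10 (-0.70 ± 0.17), Proc (-0.55 ± 0.11) and C8g (-0.47 ± 0.10), with Hc (1.13 ± 0.10) and C1s (0.78 ± 0.09) higher. The median was -0.16 for the members and -0.12 for all genes. C6 entered this average with -2.27 in wildtype and 0.07 in Alb::GC. Without LFD Alb::GC replicate 2, HFD wildtype replicate 1 or HFD Alb::GC replicate 1, 4 were called lower, and without LFD wildtype replicate 1, 4 were called higher.

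The other lists gave the setting of the diet changes. Of 18 other complement genes, 0 were called lower and 3 higher in wildtype: Itgam, a chain of complement receptor 3 (1.30 ± 0.31), Cd59a (0.89 ± 0.11) and Cd55, a decay accelerator of C3 convertases (0.68 ± 0.17). Of 28 other coagulation and fibrinolysis genes, 2 were called higher, Vwf, von Willebrand factor (2.93 ± 0.44), and Gas6, a vitamin K dependent ligand (1.05 ± 0.21), and 0 lower. In Alb::GC, Cd59a was called higher (0.67 ± 0.11) and Procr lower (-2.43 ± 0.35), and no other gene of these lists was called. Of 23 other secreted plasma proteins, 1 was called lower and 2 higher in wildtype, Igfals (-0.83 ± 0.21) against Cp, ceruloplasmin (1.91 ± 0.22), and Serpina6 (1.26 ± 0.19), and in Alb::GC only Serpina6 was called, higher (1.19 ± 0.19). Hepatocyte transcription factors called higher numbered 5 of 13 in wildtype, including Ppara (2.64 ± 0.56) and Hnf4a (1.24 ± 0.26), and 4 of 13 in Alb::GC, including Onecut1 (1.82 ± 0.23) and Hnf4a (1.30 ± 0.26).

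Some acute phase and neutrophil genes were high in the HFD wildtype livers, where C6, C8b and F11 were low. Of 21 acute phase genes 7 were called higher, 1 lower and 13 neither there, and 1 and 1 were called in Alb::GC. Lcn2 read 0.14, 0.11, 0.24 and 1.48 on the LFD arrays (wildtype, then Alb::GC). On HFD it read 5.44 and 5.77 in wildtype mice, against 0.46 and 0.33 in Alb::GC mice. Orm2 read 8.43 and 9.32 in HFD wildtype and 0.44 to 1.2 on the other 6 arrays. The serum amyloid genes differed: LFD Alb::GC replicate 2 had the highest Saa1 (3.11, against 2.77 and 2.85 in HFD wildtype), Saa2 (14.25, against 5.65 and 6.13) and Saa3 (1.93, against 1.53 and 1.63). On that array C6, C8b and F11 were not low, at 1.22, 1.39 and 1.08. Of 6 neutrophil markers 3 were called higher in wildtype, S100a8 (3.0 ± 0.50), S100a9 (2.48 ± 0.36) and Ngp (0.74 ± 0.18), and 3 were not called. Of the 6 estimates 5 lay above 0 and 1 below, that of Elane, at 1.16 and 1.58 on LFD and 0.85 and 0.64 on HFD. The sum of the 6 ratios was 12.7 to 14.9 on HFD wildtype arrays and 3.54 to 6.41 on the others. Its largest terms on HFD wildtype arrays were S100a8 (5.4 and 4.6) and S100a9 (4.5 and 3.35). In Alb::GC 1 of the 6, Mpo, was called lower. No neutrophil marker was at the smallest deposited value. Of the other marker lists in wildtype, 1 of 4 cholangiocyte genes (Sox9) and 1 of 8 endothelial genes (Lyve1) were called higher, and of 8 stellate and fibroblast genes 1 was higher (Dcn) and 1 lower (Des). None of 8 macrophage, 7 lymphocyte, 3 adipocyte and 8 hepatocyte genes was called by limma there, though 1, 3, 0 and 4 had an unadjusted p under 0.05. Of 4 pancreas markers 1 was called lower in wildtype, Cela1, at 2.12 and 1.76 on LFD and 0.17 and 0.23 on HFD. The log2 difference between tail and head of beta-actin ran from -0.16 to 0.21 on the LFD arrays. It ran from -0.71 to -0.62 for wildtype mice on HFD and from -0.44 to -0.33 for Alb::GC mice on HFD. For Gapdh it was 0.04 to 0.22 on LFD and -0.31 to -0.15 on HFD. The part of these values in the members' changes was not tested.

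Across the 2 experiments, which share no arrays, the members' changes are set side by side. The 7 members called lower on HFD in wildtype (C8b, C6, F11, F10, Mbl1, Proc and C8g) were all called lower with AP20187, where 33 of 36 were. Their order differed: Serpind1, Klkb1 and F13b led with AP20187 and were not called on HFD in wildtype (-0.48, -0.07 and -0.17), while F11, the third largest fall on HFD, changed by -0.68 with AP20187. Hc and C1s were called lower with AP20187 and higher on HFD in both genotypes.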

How the data were processed

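The authors deposited ratios for each array, linear and centred near 1. The unit was read from the values, and the sources used here name no scanner software, summary method or denominator. Groups came from the description of each array. For LFD wildtype replicate 2 another field names both genotypes, and for AP20187 replicate 4 another field is a single letter. The 64 control probe sets were left out. Symbols came from the platform annotation supplied with the series (20380 probe sets with 1 symbol, 691 with several, 1555 with none). C1s was matched through the synonym C1s1. A gene was represented by its most specific probe set by suffix, then the lowest identifier.

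log2(ratio + 0.05) was fitted with limma 3.58.1 in R 4.3.3 (moderated variances that follow the mean, the data.table package, version 1.17.8), with the 8 arrays of each experiment in 1 fit (6 and 4 residual degrees of freedom) and 7 comparisons. The offset understates changes of low ratios. The steps were tested on simulated data. Figures used matplotlib 3.10.9 (Python 3.11.15), and upstream windows came from RefSeq. Members are named array by array for up to 8 falls and 8 rises called per comparison (otherwise the 2 smallest p-values), with Mbl1, Mbl2, F7, Fgb and Serpinc1 always given. Of other lists, up to 4 called genes are named. Genes outside these rules, such as Vkorc1, and Klkb1, Saa2 and Saa3 on the diets, were chosen after their values were seen. The members and lists were chosen with earlier results of these data known. Alternatives were the offset, the normalization, a filter on low ratios, the variance trend, the probe set, the arrays in the fit and each array left out. Precision is limited by the number of arrays, and ratios give no depth or detection.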

Additional observations from a re-analysis of the deposited data

Results flagged for a closer look

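In the 4 untreated and 4 treated TTR::Fv2E-PERK arrays, 72 sets of 4 values (36 members in 2 groups) were checked for an array standing apart from the other three by Dixon's criterion, and 4 did. Chance alone marks about 1 set in 20. AP20187 replicate 3 stood high for C6, at a ratio of 1.62 where the next was 0.86, for C8b, at 1.3 where the next was 0.76, and for Proc, at 1.21 where the next was 0.96. Untreated replicate 4 stood high for C8b, at 2.45 where the next was 1.96. With both arrays left out, a choice made after seeing the data, C6 had a change of -1.05 (limma adjusted p = 0.0048) and C8b of -1.32 (adjusted p = 0.00132). Of 17 alternatives, C6 kept its AP20187 call in 11, with limma adjusted p values up to 0.0763, and C8b in 17.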

How the results depend on the processing

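With AP20187 the median member change went from -0.60 to -0.43 under quantile normalization. With the probe set of highest mean per gene 1 member was called higher, Masp1, whose direction reversed to 1.06. On HFD in wildtype 4 members were called lower under quantile normalization, where the number of all genes called lower went from 887 to 510. With only the compared groups' arrays, 0 members were called lower and 1 higher. In Alb::GC the count called higher was 1 without a variance trend and 0 with only the compared groups' arrays. Averaged over genotypes it was 4 under median centring, where that of all genes went from 1377 to 1531. Leaving out 1 array at a time gave 30 to 33 members lower, 0 higher and medians of -0.64 to -0.57 with AP20187. It gave 0 to 5 lower, 0 to 2 higher and medians of -0.34 to -0.20 on HFD in wildtype. In Alb::GC it gave 0 lower, 0 to 3 higher and medians of -0.11 to 0.06. For the average over genotypes it gave 4 to 9 lower, 2 to 4 higher and medians of -0.20 to -0.13. For Alb::GC against wildtype the medians were -0.29 to -0.048 on LFD and 0.01 to 0.15 on HFD, and 0.11 to 0.38 for the interaction, with 0 calls in each. A group left with 1 array was assumed to vary like the others. The share of all genes called was not counted in the fits with arrays left out. Of the 33 members called lower with AP20187, 27 kept that call under each alternative. Of 17 alternatives, Masp1 kept it in 6, C6 in 11, F12 in 12, and C1s, Cfb and F10 in 16 each. The cause of these shifts was not tested. No paired analysis was possible because the groups share no replicate numbers in the labels.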
